A study of Mus musculus with 30 samples.

Results

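Genes of the white adipocyte were followed in RNA-seq libraries of 3 striated muscles, the gastrocnemius, the diaphragm and the heart, with the liver as a tissue in which fat-specific transcripts should be scarce. The group holds 10 genes, chosen by name for their place in fat cell biology, out of 36103 genes in the count table, and all 10 were found under a single row each. They were Plin1, Plin4, Cidec, Lipe, Fabp4, Pparg, Adipoq, Lep, Retn and Cfd. The animals were male mice of 5 weeks on a pure 129Pas background, either Mtm1-/y, which lack the phosphoinositide phosphatase myotubularin in the whole body and model X-linked myotubular myopathy, or WT littermates. The labels give no other allele and no treatment for any group. The gastrocnemius and the heart had 4 libraries per genotype, the diaphragm 4 WT and 3 Mtm1-/y, and the liver 3 WT and 4 Mtm1-/y, with 24873817 to 44289343 counted reads per library. The sources used here do not say whether the organs of the same replicate number came from one animal.

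White adipocytes store triglyceride in a single large lipid droplet. The droplet is coated by perilipins, hormone-sensitive lipase and its partners release fatty acids from it, and the nuclear receptor PPARγ with C/EBP factors drives the genes of the mature cell. Fat cells also act as an endocrine tissue that secretes adiponectin, leptin, resistin and adipsin. In striated muscle these cells lie between the fibres, around vessels and on the surface of the organ, so a piece of muscle taken for RNA carries a small and variable amount of fat. Several genes of the group are also used by other cells of muscle, since Fabp4 is made by capillary endothelium, and Plin4, Lipe and Pparg are transcribed at lower levels outside fat.

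Upstream sequence is shown for Adipoq, Lep and Retn, the 3 genes of the group that encode hormones of fat, whose levels are described below. RefSeq promoter windows of the mouse assembly GRCm38.p6 were matched for 9 of the 10 genes, in 13 windows, and the entry for Fabp4 was missing. Each line gives the 250 bases before the transcript start on the strand of the gene, all 3 being on the plus strand, with capitals for letters that match CCAAT or TTGCGCAA on either strand. They lie at chr16:23146286-23146535 (Adipoq), chr6:29059971-29060220 (Lep) and chr8:3655520-3655769 (Retn).
Adipoq: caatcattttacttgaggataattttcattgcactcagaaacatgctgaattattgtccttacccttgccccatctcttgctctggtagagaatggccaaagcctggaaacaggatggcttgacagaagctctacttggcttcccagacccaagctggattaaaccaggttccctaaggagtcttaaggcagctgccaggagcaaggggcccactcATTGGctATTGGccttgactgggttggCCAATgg
Lep: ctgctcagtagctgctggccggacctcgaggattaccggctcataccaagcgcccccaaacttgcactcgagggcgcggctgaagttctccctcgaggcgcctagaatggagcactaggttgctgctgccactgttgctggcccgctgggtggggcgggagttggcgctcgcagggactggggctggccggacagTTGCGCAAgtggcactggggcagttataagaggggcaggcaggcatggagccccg
Retn: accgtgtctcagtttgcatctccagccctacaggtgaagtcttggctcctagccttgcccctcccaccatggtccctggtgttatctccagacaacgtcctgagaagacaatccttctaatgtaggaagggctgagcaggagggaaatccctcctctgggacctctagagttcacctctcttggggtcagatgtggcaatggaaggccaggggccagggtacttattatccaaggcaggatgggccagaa
The letters CCAAT, which NF-Y can bind, occurred 3 times before Adipoq, the nearest copy beginning 7 bases before the start, and windows of Plin4 and Pparg also held them. They occurred in 33.8% of all 32851 promoter windows of the same length. TTGCGCAA, which reads the same on both strands and is a sequence that C/EBP factors can bind, was found in the window of Lep, beginning 55 bases before the start, and in 0.164% of all windows. All letters were searched on both strands. The half-site AGGTCA, to which nuclear receptors such as PPARγ can bind, was present in 2 Pparg windows and in 14.0% of all windows. The Retn window held none of these letters. A match of letters is a description of the sequence and not a binding site.

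On mm10, Plin1 lies at chr7:79720218-79732903, Cidec at chr6:113424634-113435760, both on the minus strand, and Adipoq at chr16:23146536-23158028 on the plus strand. Plin4, Lipe and Pparg each overlap a gene on the other strand (Hdgfl2, 4732471J01Rik and Gm44079). The libraries were stranded, but the strand setting of the counting is not given in the sources used here, so reads of these pairs may not be told apart.

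In WT muscle the diaphragm had the highest level of fat transcripts. Levels are given as CPM, read counts divided by library size after TMM scaling within a tissue. For Plin1, the perilipin of the large droplet of fat cells, the 4 WT diaphragm libraries read 75.8, 82.8, 33.0 and 160.0 CPM. The WT hearts read 18.6, 4.69, 8.86 and 21.3 CPM, and the WT gastrocnemius 3.45, 3.67, 2.46 and 10.1 CPM. The lowest diaphragm library was thus above every heart and gastrocnemius library, whereas heart and gastrocnemius overlapped. Adipoq, which encodes the hormone adiponectin, had the same order, with 53.8 to 276.0 CPM in the WT diaphragm, 6.88 to 22.4 CPM in the heart and 3.54 to 13.6 CPM in the gastrocnemius.

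Tests between WT tissues were made in one edgeR quasi-likelihood fit of the 12 WT libraries, with Benjamini-Hochberg adjustment over all genes and a threshold of 0.05. Between diaphragm and gastrocnemius, 9 of the 10 genes were higher in the diaphragm, against 29.7% of all genes tested. The log2 difference ran from 1.55 for Fabp4, the fatty acid carrier, to 4.79 for Retn, which encodes resistin. Plin4, a perilipin of small droplets, was the exception at -0.02 ± 0.22 (SE), or 0.49 with library totals, where the median of all genes moved from 0.05 to 0.56. Between heart and diaphragm all 10 genes were lower in the heart (28.7% of all genes were). The largest differences were those of Cfd, the serine protease adipsin, at -4.02 ± 0.74 and of Retn at -3.89 ± 0.57. The call of Fabp4 (-0.72 ± 0.28, adjusted p = 0.049) was lost in most of the leave-one-out fits and with library totals (-0.65). Between heart and gastrocnemius, 3 genes were higher in the heart (33.9% of all genes were) and 1 was lower (30.3%). Pparg rose by 1.17 ± 0.23, Fabp4 by 0.83 ± 0.28 and Lipe, hormone-sensitive lipase, by 0.76 ± 0.31, and Plin4 was lower at -0.76 ± 0.22. With library totals the median of all genes moved from 0.08 to 0.67, and Plin4 (-0.15) no longer passed. Only 2 of these 4 calls were left without WT gastrocnemius 2, WT gastrocnemius 3 or WT heart 1. Plin1, Cidec, Adipoq, Lep, Retn and Cfd did not pass between these tissues, with differences of -0.14 to 1.04 and SE of 0.57 to 0.70.

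Per length of exon, Fabp4, Plin4 and Cfd, in changing order, were the 3 highest genes in the WT gastrocnemius and the WT heart. In RPKM, the CPM divided by the exon length in kilobases, the WT gastrocnemius mean was 79.4 for Plin4, 45.7 for Fabp4 and 24.0 for Cfd, and the WT heart mean was 62.0, 107.0 and 30.8 in the same order. Plin1 averaged 1.06 RPKM in the gastrocnemius, 2.88 in the heart and 18.9 in the diaphragm. In the WT diaphragm Cfd came first with 482.0 RPKM, before Fabp4 with 171.0, Adipoq with 106.0 and Plin4 with 101.0. The exon length joins the exons of all annotated transcripts of a gene. For Fabp4 these cover the whole gene, 4489 bases. A shorter transcript would raise its RPKM and could change its rank in each tissue. Lep, the gene of leptin, was among the 2 lowest in each of these tissues, at 0.572 RPKM in the gastrocnemius, 4.89 in the diaphragm and 0.69 in the heart.

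**Figure D1:**
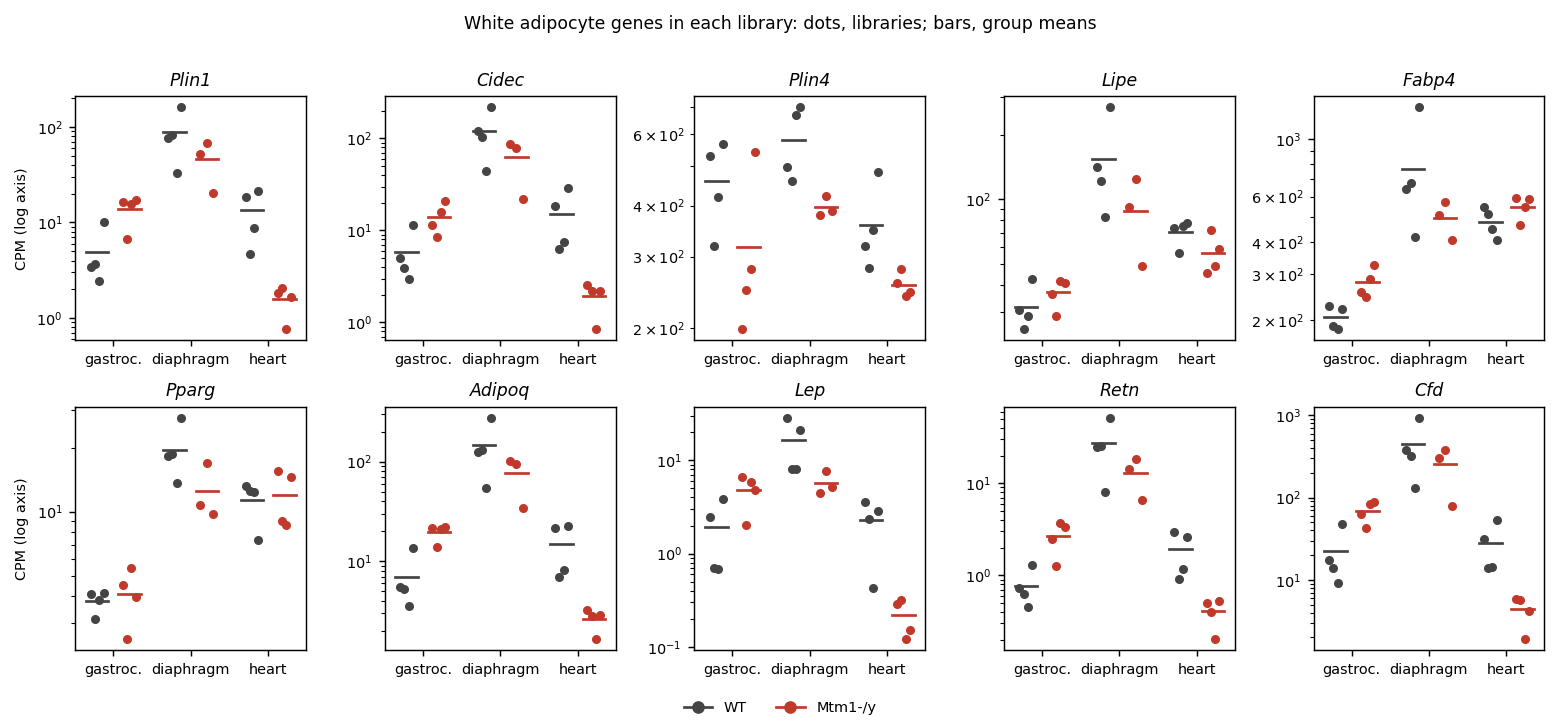
Level of each gene in every library of 3 tissues, in CPM on a log axis, with 1 dot per library and a bar at the mean of each group. Plin1, Cidec, Adipoq, Lep, Retn and Cfd in Mtm1-/y hearts lie below every WT heart. In the gastrocnemius, 3 or 4 Mtm1-/y libraries lie above every WT library for Plin1, Adipoq, Lep, Retn and Cfd. For Cidec 2 do, while for Plin4 3 lie below every WT library.

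In the gastrocnemius the droplet genes Plin1 and Cidec rose in Mtm1-/y, together with the secreted Adipoq, Retn and Cfd and the carrier Fabp4. These 6 of 10 genes passed the edgeR test in the higher direction (14.1% of all genes did) and none passed in the lower direction (14.9% of all genes did). DESeq2 called the same number, 6 as higher, where it called 12.5% of all genes as higher and 13.4% as lower. The median log2 fold change of the group was 1.3, against 0.02 over all genes tested. CPM is a share of the RNA of a library. In whole tissue, more fat cells, more RNA per fat cell and less RNA from other cells cannot be told apart. Skeletal muscle markers summed to 192000.0 to 228000.0 CPM in WT libraries against 124000.0 to 136000.0 CPM in Mtm1-/y.

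Among the droplet proteins, Plin1 read 16.3, 6.75, 15.7 and 17.2 CPM in Mtm1-/y gastrocnemius, against the WT values above. Its mean went from 4.92 ± 3.5 to 14.0 ± 4.87 CPM (SD, n = 4 each), a log2 fold change of 1.51 ± 0.44 with an adjusted p of 0.027 in edgeR. Mtm1-/y library 2 lay under WT library 4, so the groups overlapped. Cidec, which fuses droplets into a large one, read 5.04, 3.93, 2.97 and 11.4 CPM in WT libraries against 11.4, 8.47, 15.8 and 20.8 CPM in Mtm1-/y. Its log2 fold change was 1.27 ± 0.41 (adjusted p = 0.042). Plin4 went the other way without passing, from 459.0 ± 113.0 to 317.0 ± 154.0 CPM. Lipe differed by 0.22 ± 0.17 on the log2 scale and did not pass.

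For Adipoq the WT libraries read 5.48, 5.25, 3.54 and 13.6 CPM and the Mtm1-/y libraries 21.6, 14.0, 20.9 and 21.9 CPM. All Mtm1-/y values were above all WT values, and the log2 fold change was 1.5 ± 0.36 (adjusted p = 0.012). Fabp4 was the other gene without overlap, with 184.0 to 226.0 CPM in WT libraries against 246.0 to 326.0 CPM in Mtm1-/y. Its rise was the smallest of those called, 0.44 ± 0.11 (adjusted p = 0.012). Of all genes tested, 14.7% had every Mtm1-/y library above every WT library.

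Retn, expressed at few reads, rose most. It read 0.724, 0.624, 0.449 and 1.3 CPM in WT libraries against 2.49, 1.27, 3.66 and 3.39 CPM in Mtm1-/y, with a log2 fold change of 1.80 ± 0.39 (adjusted p = 0.0077). The lowest Mtm1-/y value was just under the highest WT value. Cfd had 9.05 to 48.0 CPM in WT libraries against 42.1 to 88.8 CPM in Mtm1-/y, a log2 fold change of 1.64 ± 0.46 (adjusted p = 0.024). Lep had 0.689 to 3.84 CPM in WT libraries against 2.03 to 6.66 CPM in Mtm1-/y and missed the threshold (1.33 ± 0.55, adjusted p = 0.095). The receptor gene Pparg averaged 3.81 ± 0.479 CPM in WT muscle against 4.1 ± 1.22 CPM in Mtm1-/y muscle, a difference of 0.11 ± 0.22 on the log2 scale.

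The calls were not equally firm. Retn, Adipoq and Fabp4 passed whichever single library was left out. They were the only calls left without WT library 1 or WT library 2, where Plin1, Cidec and Cfd no longer passed. WT library 4 held the highest WT value of Plin1, Cidec, Adipoq, Lep, Retn and Cfd, and without it Lep also passed (1.89, adjusted p = 0.036). Without Mtm1-/y library 4, Plin4 passed as lower (-0.91). With library totals in place of TMM the median of all genes in this tissue moved from 0.02 to 0.35, and Lep and Lipe then passed as well. In one edgeR fit of all 30 libraries only Retn passed (1.78, adjusted p = 0.021). In DESeq2, Plin1, Cidec and Cfd were lost in 6 of the 8 leave-one-out fits, those without WT library 1, 2 or 3 or Mtm1-/y library 1, 3 or 4.

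**Figure D2:**
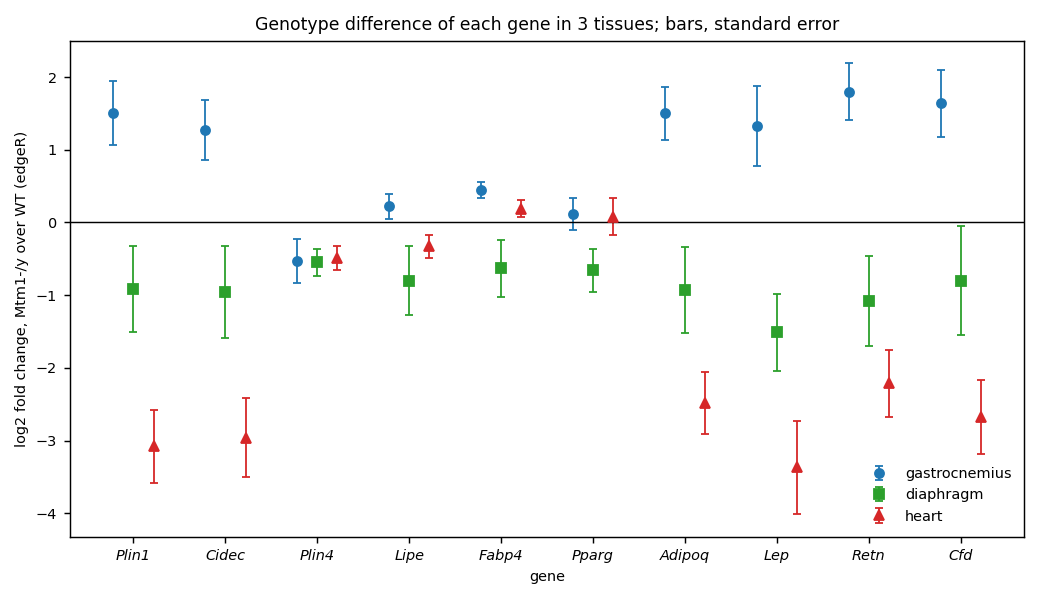
Log2 fold change of Mtm1-/y over WT for each gene in the gastrocnemius (circles), diaphragm (squares) and heart (triangles), with bars for 1 standard error from edgeR. For Plin1 the values are 1.51, -0.92 and -3.08, and for Pparg and Fabp4 the 3 values lie between -0.66 and 0.44.

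Markers of other cell types also differed in the gastrocnemius, where 14.1% of all genes were called higher and 14.9% lower. All 10 macrophage markers were higher in Mtm1-/y, led by Mpeg1 (2.63 ± 0.17), and their summed level was 54.0 to 92.9 CPM in WT libraries against 162.0 to 202.0 CPM in Mtm1-/y. Of 12 capillary endothelium markers 5 were lower, among them Flt1 (-0.79 ± 0.06), and the sum fell from 1170.0 to 1420.0 CPM down to 747.0 to 950.0 CPM, while the endothelial and adipocyte gene Fabp4 rose. Of 12 markers of adipogenic progenitors 4 were higher and 1 was lower, including Icam1 (0.92 ± 0.13). Of 8 markers of mesothelium, the surface lining, 2 were measurable and Msln was higher, with a summed level of 0.661 to 1.34 CPM in WT libraries against 3.96 to 11.7 CPM in Mtm1-/y. Of 8 skeletal muscle markers 2 were higher and 6 lower. The lymphoid sum was 55.6 to 77.5 CPM in WT libraries against 5.52 to 8.82 CPM in Mtm1-/y. Of its 9 genes 2 were measurable, and Ighm, the immunoglobulin heavy chain gene that made up most of the sum, was lower (-3.48 ± 0.17). Of 12 hepatocyte markers 2 were lower, close to the share of all genes, Tat (-2.46 ± 0.58) and Ahsg (-1.96 ± 0.66). Their median was -1.93 over the 12, with overlapping sums of 32.3 to 122.0 CPM in WT libraries against 4.39 to 60.0 CPM in Mtm1-/y. The part of these cell types in the fat gene difference was not tested.

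Genes of the same biology outside the group were counted in lists written with earlier results of these data known, beside 14.1% of all genes called higher and 14.9% called lower in this muscle. Of 19 other adipocyte-enriched genes, 6 rose in the gastrocnemius by edgeR and none fell, with a median of 0.93. The 6 included Adrb3, the β3-adrenergic receptor (1.99 ± 0.43), the activin receptor ALK7 gene Acvr1c (1.81 ± 0.36) and Lgals12, a galectin of fat droplets (1.65 ± 0.38). DESeq2 called 10 as higher (12.5% of all genes were) and 1, Car3 (-0.36), as lower (13.4% were). Car3 averaged 3310 CPM in WT, and the list summed to 3090.0 to 4260.0 CPM in WT libraries against 2430.0 to 3280.0 CPM in Mtm1-/y. Of 20 lipid droplet and lipolysis genes 4 rose and 5 fell, among them the acyltransferase Agpat2 (0.75 ± 0.12), the glycerol-3-phosphate dehydrogenase Gpd1 (-1.10 ± 0.14) and Plin3 (-0.70 ± 0.11). Of 14 regulators of adipogenesis 3 rose and 3 fell. Cebpa, a partner of PPARγ, rose by 1.18 ± 0.17 and Klf5 by 1.95 ± 0.17, whereas the partner receptor Rxra fell by 0.50 on the log2 scale. Among 12 secreted adipokines, of which 11 were measurable, Angptl4 (1.70 ± 0.34) and Metrnl (0.78 ± 0.11) rose with 1 other and Agt fell (-0.50 ± 0.11).

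Receptors and genes of lipid handling were counted beside the same 14.1% and 14.9%, and most of them did not pass. Of 8 adipokine receptors 2 rose and 2 fell, and both adiponectin receptor genes were lower, Adipor2 at -0.56 ± 0.06 and Adipor1 at -0.33 ± 0.09. Of 12 de novo lipogenesis genes 1 rose and 4 fell, including Me1 (-0.88 ± 0.09), Thrsp (-0.77 ± 0.14) and Acacb (-0.46 ± 0.09). Of 8 genes of fatty acid and glucose uptake none rose and 3 fell, which were the glucose transporter Slc2a4 (-0.64 ± 0.10), Gpihbp1 (-0.56 ± 0.14) and Lpl (-0.48 ± 0.13), the lipase that Gpihbp1 holds at the capillary wall. Of 10 measurable brown adipocyte genes 3 rose and 1 fell, with Dio2 (1.40 ± 0.29) and Cidea (1.28 ± 0.26) higher and Ppargc1a lower (-0.60 ± 0.13). Ucp1, the defining gene of brown fat, stayed at 0.599 to 3.33 CPM in the gastrocnemius libraries.

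In the heart 7 of the genes had estimates below 0 where those in the gastrocnemius were above 0. Plin1, Cidec, Adipoq, Lep, Retn and Cfd were between 4.62-fold and 10.3-fold lower in Mtm1-/y, while Fabp4, Pparg and Lipe differed by less than 1.3-fold. The edgeR test across all genes called none of the 10 in the heart, where it called 0.00656% of all genes as lower and 0% as higher. At an unadjusted p under 0.05, 7 of the 10 passed, as did 1353 of 15238 genes. DESeq2 called 6 of the 10 as lower, against 0.359% of all genes it tested (0.102% as higher), and kept these 6 without any single library. The median log2 fold change of the 10 in edgeR was -2.34, against 0 over all genes.

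Plin1 was at 497, 148, 270 and 672 reads in the WT hearts and at 50, 52, 19 and 44 reads in the Mtm1-/y hearts. In CPM these were 18.6, 4.69, 8.86 and 21.3 against 1.81, 2.06, 0.766 and 1.66, with no overlap. The log2 fold change was -3.08 ± 0.50, with an adjusted p of 0.35 in edgeR and 3.1e-08 in DESeq2. Cidec read 18.5, 6.22, 7.51 and 28.6 CPM in WT libraries against 2.53, 2.18, 0.846 and 2.22 CPM in Mtm1-/y, a difference of -2.96 ± 0.54. Plin4 was lower by a smaller amount, from 358.0 ± 89.0 to 256.0 ± 18.0 CPM, with an adjusted p of 0.55 in edgeR and 0.27 in DESeq2. Its lowest WT heart (281.0 CPM) was just above its highest Mtm1-/y heart (280.0 CPM).

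The secreted products were lower in the same hearts. Adipoq read 21.7, 6.88, 8.13 and 22.4 CPM in WT libraries against 3.22, 2.85, 1.65 and 2.86 CPM in Mtm1-/y (-2.48 ± 0.43, DESeq2 adjusted p = 1.1e-06). Cfd read 31.2, 13.8, 14.3 and 54.1 CPM in WT libraries against 5.86, 5.66, 1.89 and 4.22 CPM in Mtm1-/y (-2.68 ± 0.51, DESeq2 adjusted p = 0.002). Retn went from 0.92 to 2.96 CPM down to 0.202 to 0.527 CPM (-2.21 ± 0.46, DESeq2 adjusted p = 0.0038). The WT and Mtm1-/y values of all 3 were separate.

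Lep had few reads in the heart, 96, 74, 13 and 91 in WT and 8, 8, 3 and 4 in Mtm1-/y. Its fold change (-3.37 ± 0.64, DESeq2 adjusted p = 0.00011) therefore rested on 23 reads in the Mtm1-/y group. WT heart 3 read 0.426 CPM, much nearer to the highest Mtm1-/y value of 0.316 CPM than to the other WT hearts. In all, 7 of the 10 genes had every Mtm1-/y heart below every WT heart, against 2.16% of all genes tested.

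Fabp4, Pparg and Lipe, which other cells also use, did not pass. Fabp4 was at 546.0, 514.0, 451.0 and 409.0 CPM in WT hearts and at 591.0, 464.0, 549.0 and 585.0 CPM in Mtm1-/y hearts, a difference of 0.19 ± 0.12. Pparg averaged 11.3 ± 2.68 CPM in WT hearts and 11.9 ± 3.62 CPM in Mtm1-/y hearts (0.08 ± 0.25). Lipe averaged 70.7 ± 9.81 and 56.2 ± 11.9 CPM (-0.33 ± 0.16). All 3 overlapped between genotypes.

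Hearts also differed in the signal of atrial and surface markers. The summed level of 7 atrial markers was 3760.0, 772.0, 4280.0 and 31100.0 CPM in WT hearts 1 to 4 and 167.0, 5700.0, 645.0 and 181.0 CPM in the Mtm1-/y hearts. The list's median log2 fold change was -2.48. None of 6 tested genes was called by edgeR, and 1 of 7 was called lower by DESeq2 (0.359% of all genes were). Among WT hearts, heart 2 with the least atrial signal had the lowest Plin1 level (4.69 CPM) and heart 4 with the most had the highest (21.3 CPM). WT heart 3 had more atrial signal than WT heart 1 but less Plin1 (8.86 against 18.6 CPM). Among Mtm1-/y hearts, heart 2 with the most atrial signal also had the highest Plin1 level (2.06 CPM). Mtm1-/y heart 3 had more atrial signal than Mtm1-/y hearts 1 and 4 but the lowest Plin1 level (0.766 CPM). Mtm1-/y heart 2 was above WT hearts 1 to 3 in atrial signal and below each of them in Plin1.

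Mesothelium markers summed to 76.3 to 411.0 CPM in WT libraries against 47.3 to 196.0 CPM in Mtm1-/y hearts, highest in WT heart 4. Ucp1 was at 28.1 CPM in WT heart 1, at 3.33 CPM in WT heart 4 and at 0.0 to 0.253 CPM in the other hearts. Without WT heart 1 or without WT heart 4, DESeq2 still called the same 6 genes, but each of these fits kept the other of these hearts. Hepatocyte markers had a median log2 fold change of 2.13 over 12 genes. Of these markers none was called by edgeR and 3 were called higher by DESeq2 (0.102% of all genes were). Their sums were 6.72 to 112.0 CPM in WT libraries against 59.8 to 170.0 CPM in Mtm1-/y hearts and overlapped, whereas Alb, the albumin gene of hepatocytes, was at 0.951 to 25.1 CPM in WT hearts against 27.9 to 102.0 CPM in Mtm1-/y hearts, without overlap. Macrophage sums (389.0 to 523.0 and 408.0 to 450.0 CPM) and endothelial sums (1740.0 to 2150.0 and 1780.0 to 2310.0 CPM) overlapped. The part of atrial, surface, brown fat and liver tissue in the lower fat transcripts was not tested.

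Outside the group, none of 17 measurable adipocyte-enriched genes was called in the heart by edgeR (0.00656% of all genes were lower), with a median of -2.24. DESeq2 called 9 of 19 as lower, against 0.359% of all genes it tested. Among them were Lgals12 (-2.68 ± 0.57), Acvr1c (-2.52 ± 0.60), Nnat (-3.19) and Tmem45b (-3.95). Nnat and Tmem45b were named for their correlation with the mean profile of the group. That profile holds the heart differences, so their directions were in part fixed by this choice. In the same list Gpam (0.3 ± 0.11) and Cyp2f2 (1.15 ± 0.54) had estimates above 0 and were not called. The lists of droplet, lipogenesis, receptor and uptake genes held no call in the heart by either tool.

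The diaphragm, with the highest levels, gave no call when all its libraries were used. Neither edgeR nor DESeq2 called any of the 10 genes, against 0% of all genes called as higher and 0.0119% as lower by edgeR, and 1.71% as higher and 0.674% as lower by DESeq2. At an unadjusted p under 0.05, 2 of the 10 passed in edgeR, as did 1806 of 16796 genes, and 3 in DESeq2, as did 2101 of 18403. With 1 library left out, DESeq2 called Pparg, Retn and Lep lower without WT 3, Pparg and Lep lower without Mtm1-/y 2, and Lep lower without WT 2. All 10 estimates were below 0, from -0.55 to -1.51, with a median of -0.86. Plin1 read 52.0, 67.5 and 20.4 CPM in Mtm1-/y, the last of which was below the lowest WT library. Lep had 28.6, 7.99, 8.03 and 20.9 CPM in WT libraries against 4.42, 7.68 and 5.15 CPM in Mtm1-/y, and with Plin4 was 1 of 2 genes without overlap (4.57% of all genes were lower without overlap). Lep differed by -1.51 ± 0.53 (adjusted p = 0.39 in edgeR and 0.068 in DESeq2) and Plin4 by -0.55 ± 0.19 (adjusted p = 0.38).

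Fat transcripts varied widely between diaphragms of the same genotype. In WT, Cfd spanned 132.0 to 940.0 CPM, Retn 8.09 to 51.6 CPM and Adipoq 53.8 to 276.0 CPM, with WT diaphragm 4 the highest and WT diaphragm 3 the lowest for each. In Mtm1-/y, library 4 was the lowest for Plin1, Cidec, Adipoq, Retn and Cfd. WT diaphragm 3 and Mtm1-/y library 4 also had the lowest level of Alb, at 294.0 and 565.0 CPM. Alb was at 1680.0 CPM in Mtm1-/y library 1 and at 17700.0 to 33800.0 CPM in WT libraries 1, 2 and 4 and Mtm1-/y library 2. Ucp1 was at 1.79 CPM in WT 3, at 0.758 CPM in Mtm1-/y 4 and at 12.1 to 61.8 CPM in the other diaphragms. Without the 4 libraries over 10000 CPM of Alb, 1 WT and 2 Mtm1-/y libraries remained, and the estimates of Plin1 (0.13 ± 0.60), Cidec (0.29 ± 0.85), Adipoq (0.34 ± 0.69), Retn (0.36 ± 0.53), Cfd (0.55 ± 0.85) and Fabp4 (0.13 ± 0.25) turned positive. Those of Lep (-0.75 ± 0.29) and Plin4 (-0.80 ± 0.20) stayed negative. The lone WT library was there assumed to vary like the other group.

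**Figure D3:**
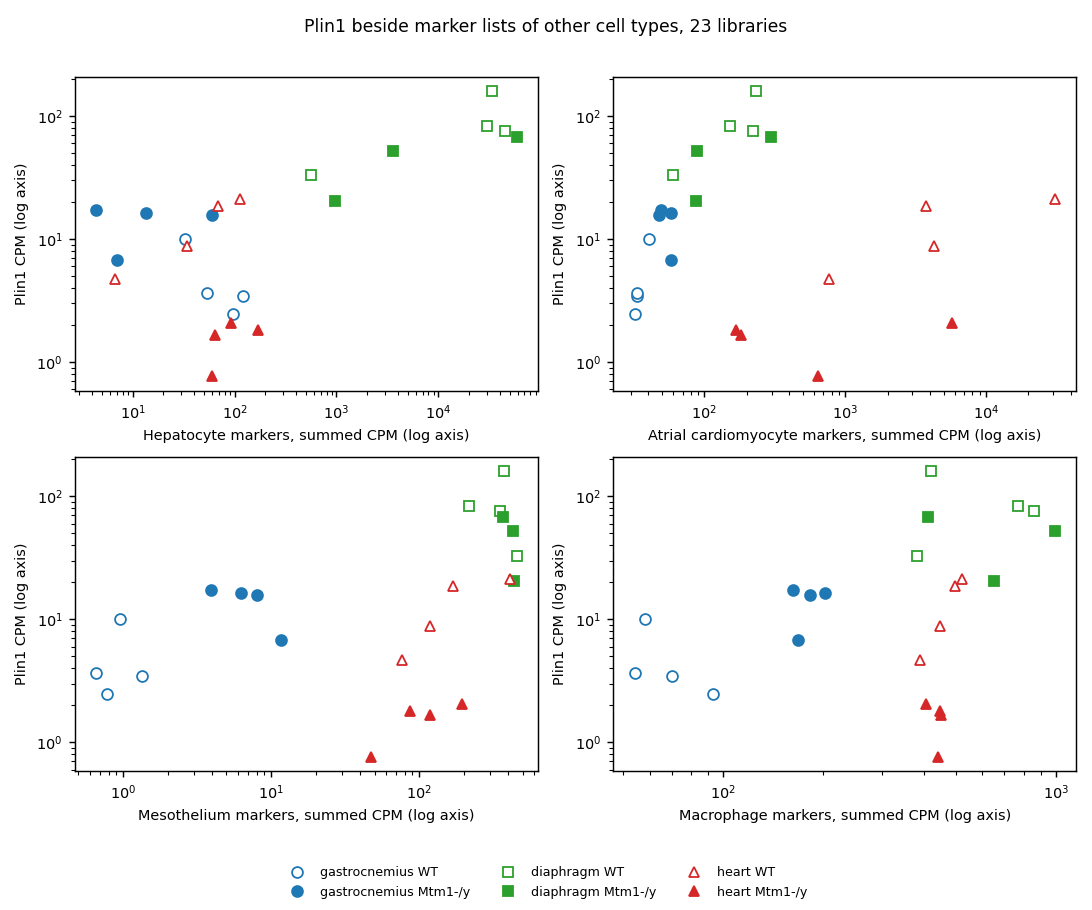
Plin1 level against the summed level of marker lists for hepatocytes, atrial cardiomyocytes, mesothelium and macrophages, both in CPM on log axes, with 1 point per library (open, WT, and filled, Mtm1-/y). Diaphragms with over 10000 CPM of hepatocyte markers had 67.5 to 160.0 CPM of Plin1, and Mtm1-/y hearts had 0.766 to 2.06 CPM of Plin1 at 167.0 to 5700.0 CPM of atrial markers.

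The opposite directions in gastrocnemius and heart were tested as a difference of genotype effects, in one edgeR fit of both tissues. The effect in the heart was below that in the gastrocnemius for Plin1 (-4.56 ± 0.73, adjusted p = 0.001), Cidec (-4.21 ± 0.74, adjusted p = 0.0016) and Adipoq (-3.95 ± 0.61, adjusted p = 0.00083). The same held for Lep (-4.67 ± 0.94, adjusted p = 0.0039), Retn (-3.99 ± 0.64, adjusted p = 0.001) and Cfd (-4.30 ± 0.76, adjusted p = 0.0017). These 6 of 10 passed in the lower direction, as did 9.89% of all genes, and none in the higher, as did 9.94%. In DESeq2 the same 6 passed as lower, where 9.12% of all genes did and 13% were higher. They also passed in limma voom and without any single library. The differences of Fabp4 (-0.24 ± 0.17), Lipe (-0.53 ± 0.25), Plin4 (0.07 ± 0.37) and Pparg (-0.01 ± 0.35) did not pass, and those of Plin4 and Pparg changed sign under other scalings. With library totals, which moved the median of all genes from -0.03 to -0.44, Fabp4 (-0.64) and Lipe (-0.95) passed as lower.

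Against the diaphragm the differences were not called. Between heart and diaphragm none of the 10 effects passed in edgeR (0.00573% of all genes passed as higher and 0% as lower) or in DESeq2 (0.236% as higher and 1% as lower), with Plin1 at -2.15 ± 0.80 and an adjusted p of 0.37. At an unadjusted p under 0.05, 2 passed in edgeR, as did 1852 of 17466 genes, and 6 in DESeq2, as did 2042 of 17833. Between gastrocnemius and diaphragm none passed in edgeR (0.166% of all genes passed as higher and 0.114% as lower). There 7 had an unadjusted p under 0.05 in edgeR, as did 2249 of 17509 genes. DESeq2 called 3 as higher in the gastrocnemius (0.855% of all genes were higher and 1.19% lower). These were Retn (2.85), Lep (2.82) and Adipoq (2.39). The comparisons share libraries of each tissue, so their calls are not independent of each other.

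The ratios of Cidec, Adipoq, Retn and Cfd to Plin1 within a library varied by at most 3.86-fold across libraries of muscle and heart. The 6 genes whose effects differed were singled out after their values were seen, so what follows describes them. Over the 23 muscle and heart libraries the ratio of Cidec to Plin1 varied 2.39-fold, that of Adipoq to Plin1 2.35-fold and that of Retn to Plin1 2.69-fold. Over the same libraries Plin1 itself ranged from 0.766 to 160.0 CPM. The ratio of Fabp4 to Plin1 varied 87.3-fold and that of Plin4 to Plin1 72.0-fold. Such ratios within a library do not depend on the scaling between libraries.

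After removing the mean of each tissue and genotype, log2 levels of the 6 genes correlated across the 23 libraries with a median pairwise Pearson r of 0.95 (range 0.59 to 0.98, 15 pairs). The other 30 pairs among the 10 genes had a median r of 0.45, from -0.02 to 0.83. The libraries share tissue pieces and depth, so r is a description. Lep was the loosest of the 6, with r between 0.59 and 0.66. Its ratio to Plin1 varied 14.7-fold, from 0.0481 in WT heart 3 to 0.71 in a WT gastrocnemius.

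The ratio of Cfd to Plin1, CPM over CPM, separated hearts from skeletal muscles. It was 1.61 to 3.24 in the 8 hearts and 3.68 to 6.24 in the skeletal muscles, without overlap. The ratio of Retn to Plin1 was 0.245 to 0.328 in the diaphragms and 0.129 to 0.234 in the gastrocnemius. In the heart, Adipoq was 0.919 to 1.47 times Plin1 in WT and 1.38 to 2.16 times in Mtm1-/y, and Retn 0.122 to 0.196 and 0.192 to 0.318 times.

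As raw reads, the 6 genes made up 2.92% to 9.57% of all reads of the 10 genes in WT gastrocnemius and 12.4% to 19.6% in Mtm1-/y. In the heart they made up 3.88% to 11.9% in WT and 0.643% to 1.6% in Mtm1-/y. In the diaphragm the ranges were 19.1% to 41.7% and 16.4% to 36.4%. The genotypes were separate in the first 2 organs and overlapped in the diaphragm.

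**Figure D4:**
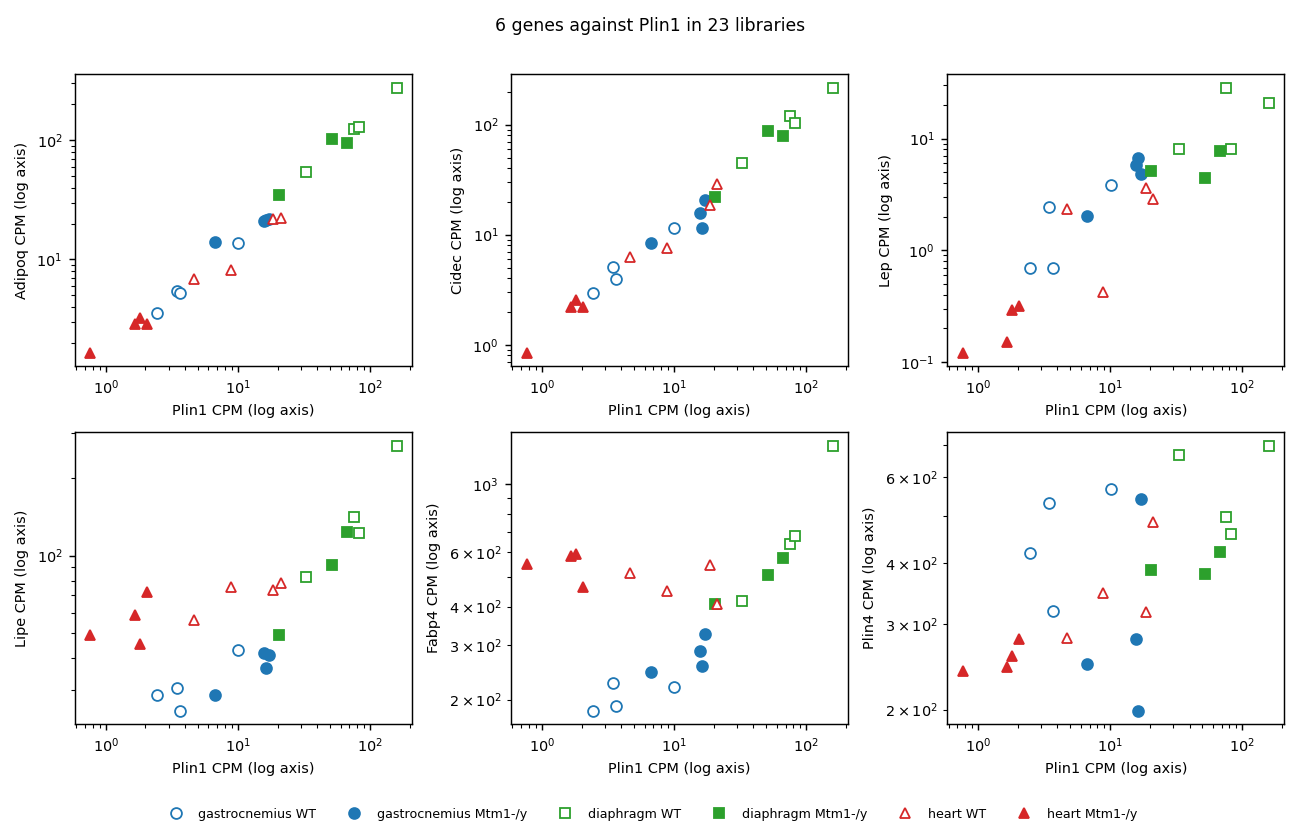
Level of Adipoq, Cidec, Lep, Lipe, Fabp4 and Plin4 against Plin1 in 23 libraries, in CPM on log axes (circles, gastrocnemius, squares, diaphragm, and triangles, heart, open for WT and filled for Mtm1-/y). Adipoq and Cidec follow Plin1 over its whole range of 0.766 to 160.0 CPM. In gastrocnemius and heart, where Plin1 was at most 21.3 CPM, Fabp4 ran from 184.0 to 591.0 CPM and Plin4 from 199.0 to 567.0 CPM.

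Among 12190 other genes with at least 1 CPM on average in each of the 3 tissues, the closest to the mean profile of the 10 genes after removing tissue means was Lgals12 (r = 0.95, 23 libraries). It was followed by Car5b (r = 0.95), a mitochondrial carbonic anhydrase, and Tmem45b (r = 0.92). Prkar2b, a regulatory subunit of protein kinase A, and Slc1a5, a glutamine transporter, both had r = 0.91, and Nnat and Acp5 had r = 0.90. Haptoglobin (Hp) and Acvr1c had r = 0.89, and Mrap, the accessory protein of the melanocortin receptor, had r = 0.88. The profile still held the genotype shifts of the 10 genes, so the directions that follow were in part fixed by the choice of these genes and are a description. In the gastrocnemius Lgals12, Car5b, Prkar2b, Slc1a5, Acp5 and Acvr1c were called higher by edgeR, while Hp was at 1.03 (adjusted p = 0.0859). In the heart DESeq2 called each of these correlated genes lower except Slc1a5 (DESeq2 adjusted p = 0.298). The smallest DESeq2 adjusted p was that of Hp (7.27e-07, edgeR estimate -2.39).

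The liver held almost no reads of Plin1 and the secreted genes. In 6 of the 7 liver libraries Plin1 had 0 or 1 read, Lep 0 or 1, Retn 0 or 1, Cfd 0 or 1 and Adipoq 0 to 3. A count of 0 allows up to 3 reads, which was 0.0729 to 0.111 CPM in these libraries. Mtm1-/y liver 3 stood apart with 25 reads of Plin1, 59 of Adipoq, 86 of Cfd, 6 of Lep and 3 of Retn. Of the 10 genes 5 passed the filter on low counts in the liver (Plin4, Cidec, Lipe, Fabp4 and Pparg) and none was called by edgeR, where 0% of all genes were called. None of these 5 had an unadjusted p under 0.05 in edgeR, where 606 of 14305 genes did. DESeq2 called none of the 10 (0.0299% of all genes as higher and 0.12% as lower). Plin4 had 183 to 595 reads and Cidec 26 to 75 reads per liver library. WT livers averaged 4.83 ± 1.32 CPM of Pparg (SD, n = 3) against 6.64 ± 1.65 CPM in Mtm1-/y livers (SD, n = 4).

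The genotype labels were checked with Mtm1, which read 12.5 to 31.7 CPM in WT libraries against 3.37 to 6.39 CPM in Mtm1-/y libraries. Skeletal muscle markers summed to at least 57100.0 CPM in all gastrocnemius and diaphragm libraries and to at most 3490.0 CPM in the hearts, where cardiac markers summed to 52200.0 to 61300.0 CPM.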

How the data were processed

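The authors extracted total RNA with TRI Reagent, made stranded poly(A) libraries from 350 ng (TruSeq Stranded mRNA) and sequenced single reads of 50 bases. Per the labels and methods, reads were trimmed with cutadapt 1.10, aligned to mm10 with STAR 2.5.3a and counted per gene with HTSeq 0.6.1p1 (Ensembl 96). The deposited values are raw counts per gene for 30 libraries, with totals of 24873817 to 44289343 reads. The count table was used as deposited.

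All further steps were computed from that table. In R 4.3.3, genes were filtered with filterByExpr (minimum count 10) and scaled by TMM. They were tested with the quasi-likelihood F test of edgeR 4.0.16 (glmQLFit), with Benjamini-Hochberg adjustment over all genes tested and calls at adjusted p under 0.05. Genotypes were compared within each tissue, genotype effects between tissues as interaction contrasts, and WT tissues in one fit of 12 libraries. SE is the log2 fold change divided by the root of F. DESeq2 1.42.0 and limma 3.58.1 (voom with sample weights) were alternatives, as were other scaling, no count filter, all libraries in one fit, an absolute log2 fold change over 1, omission of liver-enriched genes, a replicate block and omission of each library. The alternatives of library totals and of leaving out liver-rich diaphragms were chosen after seeing the data. The scripts were tested on simulated counts.

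Gene positions follow GENCODE M21. The 10 genes, the marker lists and the comparisons were chosen with earlier results of these data known. Named genes are the 10, up to 3 per list by smallest p in the gastrocnemius, and the 10 genes most correlated with their mean profile. Nnat and Tmem45b fall under the last. No library pair agreed within sampling noise (smallest chi-square per degree of freedom 11.3). Replicates are separate mice per the methods, 3 or 4 per group. Replicate numbers did not pair the genotypes: correlations of same-numbered deviations ran from -0.73 to 0.55. Read counts carry no molecular identifiers, so limits on counts cover counting error only.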

Additional observations from a re-analysis of the deposited data

Results flagged for a closer look

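Of 60 groups of 4 libraries with a spread, 9 had 1 library set apart from the other 3 by Dixon's criterion, where chance gives about 1 in 20. The genes share libraries and vary together, so the 9 are not independent and cannot be weighed against that rate. In the gastrocnemius, WT replicate 4 was high for Plin1 (10.1 CPM), and Mtm1-/y replicate 2 was low for Plin1 (6.75 CPM) and Adipoq (14.0 CPM). WT heart 4, the heart with the most atrial signal, was low for Pparg (7.35 CPM). In the liver, Mtm1-/y replicate 3 was high for Plin1 (0.811 CPM), Adipoq (1.91 CPM), Lep (0.195 CPM) and Cfd (2.79 CPM), while Mtm1-/y replicate 2 was high for Lipe (22.7 CPM).

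The genotype effect differed between heart and gastrocnemius by the interaction test of edgeR for 6 genes. The log2 differences were -4.56 for Plin1, -4.21 for Cidec, -3.95 for Adipoq, -4.67 for Lep, -3.99 for Retn and -4.30 for Cfd, each lower in the heart.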

How the results depend on the processing

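The 6 differences between heart and gastrocnemius effects and the WT differences of the diaphragm from the gastrocnemius kept their calls under every alternative run. For the effects, the replicate block joined same-numbered WT and Mtm1-/y libraries within a tissue. No alternative linked the heart and gastrocnemius of the same animal there, so shared animals were not tested. The number of the 10 genes called in the gastrocnemius was 6, and 1 in a fit of all 30 libraries. Leaving out 1 library gave 3 to 7, with 3 without WT replicate 1 or 2. In the heart edgeR called 0, DESeq2 called 6, and leaving out 1 library gave 0 to 1 (Plin1 without WT heart 2, Lep without WT heart 3). For gastrocnemius minus diaphragm the count was 0, with 2 in voom, 3 in DESeq2 and 0 to 1 without 1 library (Retn without WT diaphragm 3). For WT heart minus gastrocnemius it was 4, with 7 under the replicate block, 1 when a log2 fold change over 1 was also required, and 2 to 5 without 1 library. The cause of these changes was not tested, except that fewer libraries were fitted. Lep and Retn in the Mtm1-/y hearts rest on 3 to 14 reads per library.

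Whether a replicate number marks the same animal in several organs is not known. Some libraries correlated best with their own number across organs and others did not (correlations -0.17 to 0.24), which cannot decide it. The tests between organs treated the libraries as independent. The block gave 7 calls in the gastrocnemius and 0 in the heart.

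Several signs turned. Without liver-rich diaphragms, estimates of -0.63 to -1.08 turned: Plin1 was 0.13, Cidec 0.29, Fabp4 0.13, Adipoq 0.34, Retn 0.36 and Cfd 0.55. In voom, Pparg in the heart was -0.05 and Lipe in the liver -0.16. For heart minus gastrocnemius, Pparg was 0.04 with DESeq2 size factors, 0.00 with the replicate block and 0.05 in DESeq2, and Plin4 was -0.35 with library totals. For heart minus diaphragm Plin4 was -0.03 with library totals. For gastrocnemius minus diaphragm Plin4 was 0.00 with size factors, -0.10 in voom, -0.13 with the replicate block and -0.01 in DESeq2. For WT heart minus gastrocnemius, Cfd was 0.03 with the replicate block and 0.60 with library totals, and Lep 0.47 with library totals. For WT diaphragm minus gastrocnemius Plin4 was 0.03 without liver-enriched genes and 0.49 with library totals. Leaving out 1 library also turned the sign of Pparg (gastrocnemius, -0.04 to 0.29), Pparg (heart, -0.08 to 0.20), Lipe (liver, -0.35 to 0.35), Fabp4 (liver, -0.25 to 0.33), Plin4 (heart minus gastrocnemius, -0.10 to 0.46), Pparg (heart minus gastrocnemius, -0.18 to 0.14), Plin4 (heart minus diaphragm, -0.02 to 0.26), Plin4 (gastrocnemius minus diaphragm, -0.36 to 0.20), Lep (WT heart minus gastrocnemius, -0.43 to 0.43), Cfd (WT heart minus gastrocnemius, -0.57 to 0.67), Plin4 (WT diaphragm minus gastrocnemius, -0.17 to 0.09).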
